A study of Mus musculus with 12 samples.

Results

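The 45 genes described here code for the enzymes that assemble, transfer, trim, branch and cap asparagine-linked glycans (N-glycans), for the makers and Golgi carriers of the sugars they use, and for the enzyme that tags glycans for the lysosome. They were taken by symbol from a fixed list, and all 45 were found among the 24421 rows of the count tables. Whole transcriptomes of liver and lung were sequenced from newborn mice that were wild type (*Man1a2* +/+, WT) or null (*Man1a2* -/-) for the Golgi enzyme mannosidase-1-alpha-2, to ask whether loss of the gene alters the liver as well as the lung. The 12 libraries formed 4 groups of 3, namely WT liver, null liver, WT lung and null lung. All pups came from matings of *Man1a2* +/- mice of the Man1a2tm1.1Ahe strain, in which exon 2 is deleted, and tissue was taken 30 to 60 minutes after birth. The deletion is present in every cell from conception, the null pups die of respiratory failure, and the tissues were sequenced whole.

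N-glycans are built on the lipid dolichol in the membrane of the endoplasmic reticulum, sugar by sugar, and the finished oligosaccharide is moved as a block onto asparagines of new proteins by the oligosaccharyltransferase complex. Glucosidases then remove the terminal glucoses, which gates entry to and release from the lectin chaperones that help glycoproteins fold. In the Golgi, class I mannosidases such as the product of *Man1a2* trim mannose so that N-acetylglucosaminyltransferases can start branches, which galactosyl-, sialyl- and fucosyltransferases extend and cap. The liver secretes most plasma glycoproteins and makes heavy use of this pathway.

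Counted reads per library ranged from 26759463 to 42914295, and 3 reads in a library amounted to 0.0538 to 0.126 CPM. CPM are counts per library size, with library sizes scaled by TMM factors over the 12 libraries. *Man1a2* itself (chr3:100562208-100685503, minus strand, GRCm38) stood at 87.0, 54.2 and 68.6 CPM in WT liver and at 53.7, 48.2 and 50.2 CPM in null liver. In lung it stood at 105, 75.6 and 107 CPM in WT and at 42.7, 49.8 and 50.2 CPM in null. Counts cover the whole gene, including exons outside the deletion, so these levels are a weak check of the genotype labels. The log2 fold change of null over WT was -0.47 in liver (edgeR adjusted p = 0.0809) and -1.01 in lung (edgeR adjusted p = 0.0614). Markers of hepatocytes summed to 168044.2 to 247388.3 CPM in liver libraries and to 31.3 to 503 CPM in lung libraries. Null lung 1 stood apart. Its log2 CPM correlated at 0.854 to 0.872 with the other lung libraries, against 0.989 to 0.995 within WT lung. Its 8 lung epithelium markers, all detected, summed to 479 CPM against 19848.9 to 27268.6 CPM in the other lungs, and its 8 skeletal muscle markers summed to 10384.3 CPM against at most 57.6 CPM. Null liver 1 also held muscle markers, at 8355.1 CPM against 7.86 to 11.5 CPM in the other livers. The part these markers play in the results below was not tested, so counts are given with and without these libraries. In whole tissue, fewer cells of a type and less RNA per cell cannot be told apart.

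Per kilobase of transcript, subunits of the oligosaccharyltransferase ranked highest in both tissues. In WT liver *Ostc* stood at 127 ± 24.5 CPM per kb (SD, n = 3), *Ddost* at 85.9 ± 7.16, *Rpn2* at 78.8 ± 3.85 and *Rpn1* at 66.7 ± 7.74 CPM per kb. All of these code for subunits of the complex, and the neighbours *Ddost* and *Rpn2* lay within their SDs of each other. In WT lung *Ostc* was again first at 75.1 ± 1.95 CPM per kb, followed by *Rpn2* at 63.8 ± 7.34 and by *B4galt1*, which codes for the main galactosyltransferase, at 56.0 ± 3.27 CPM per kb, and the last pair again lay within their SDs. At the low end lay *Mgat5*, the branching enzyme that adds the outer arm, at 0.485 ± 0.0280 CPM per kb in WT liver and 0.996 ± 0.108 in WT lung. *Mgat3*, which adds the bisecting N-acetylglucosamine, stood at 0.691 ± 0.153 CPM per kb in WT liver and 7.43 ± 1.39 in WT lung. *Dpm1*, the catalytic subunit that makes dolichol-phosphate mannose, was low in every library, at 0.879 to 2.88 CPM, and 895 of its exon bases also belong to a predicted gene on the same strand, so its level is uncertain.

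Promoter windows in RefSeq (GRCm38.p6, from 250 bases before to 50 after a start) were given for 37 of the 45 genes, in 48 windows. They were searched on both strands for letters read by regulators of endoplasmic reticulum folding capacity and by general promoter factors. The stress element ERSE (CCAAT and CCACG with a fixed gap between them) was in 1 of the 48 windows, that of *Alg12*, and in 39 of all 32851 windows (0.119%). The element TGACGTGG of the unfolded protein response was in 0 of 48 windows and in 0.676% of all. The ETS core CCGGAAG was in 15 of 48 windows (31.2%) of 14 genes and in 8.86% of all windows, and the GC box GGGCGG in 31 of 48 (64.6%) and in 35.7% of all. The E-box CACGTG was in 6 windows (12.5%, against 7.15%), and CCAAT, which overlaps the start of the ERSE, in 22 (45.8%, against 37.4%). TATAAA was in 3 windows (6.25%, against 13.6%). These shares describe the letters and were not tested. The sites of 5 genes whose values are given in full or that hold the rare element are shown, read on the strand of the gene, with the matched letters in capitals. They lie at chr15:88819514-88819543 for *Alg12*, chr6:83115438-83115467 for *Mogs*, chr19:8898028-8898057 for *Ganab*, chr11:49244145-49244174 for *Mgat1* and chr16:8637700-8637729 for *Pmm2*. In *Mogs* and *Mgat1* the capitals are the ETS core read on the other strand.
Alg12, ERSE: gtggaCCAATTGAGGCTCGCCACGagaagc
Mogs, ETS core: cagccacagcgCTTCCGGgcttcggggccg
Ganab, ETS core: caatcggaaggCCGGAAGgggcgggcacta
Mgat1, ETS core: cccaggacctaCTTCCGGaggacaggcgga
Pmm2, ETS core: tcggagcggacCCGGAAGttccgggtagag

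The comparison of WT lung with WT liver asked how the pathway differs between the tissues without the deletion. All 3 glucosidase genes and most oligosaccharyltransferase genes were lower in lung, while *Mgat3*, *Mgat4a*, *Gnptab* and *Fut8* were among the genes that were higher. By edgeR with adjusted p under 0.05 and at least a 1.2-fold difference, 32 of 45 genes were called, 11 higher and 21 lower in lung, or 71.1% against 77.0% of the 15635 genes tested. The median log2 fold change of lung over liver was -0.27 over the 45 genes and 0.04 over all genes, and the groups did not overlap for 34 of the 45, against 81.3% of all genes. Removing trends with GC content and length moved these medians to -0.08 and 0.02. That fit called 28 of the 45, 11 higher and 17 lower in lung, against 76.7% of all genes. In the fit without trend removal, 7 of the 9 oligosaccharyltransferase genes were lower and 1 was higher. In the same fit 7 of the 14 assembly genes were lower, 1 was higher and 6 were not called. Over 9 alternative fits with no library left out, *Ostc*, *Alg13*, *Alg14* and *Mgat4b* each kept the call in 7 and *Dolk* in 4. Without trend removal 4 of the 6 branching genes were higher, as were both genes of the lysosomal tag. *Gnptg*, the lesser of the pair (0.40 ± 0.09), shares 49.5% of its exon bases with a gene on the opposite strand. Strand use in counting is not given, so its level is uncertain.

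*Mgat3* had the largest difference. It stood at 2.78, 4.05 and 2.84 CPM in WT liver and at 28.3, 41.3 and 34.5 CPM in WT lung, so that every lung library was far above every liver library (log2 fold change 3.42 ± 0.19 SE, edgeR adjusted p = 2.21e-07). *Mgat4a*, which adds a further antenna to the mannose core, stood at 8.34, 6.98 and 8.38 CPM in liver and at 26.0, 24.7 and 27.1 CPM in lung (1.70 ± 0.12, edgeR adjusted p = 8.66e-07). *Mgat5* (1.02 ± 0.15) and the galactosyltransferase gene *B4galt1* (0.87 ± 0.10) were also higher in lung. Branching genes were not all raised, since *Mgat1*, which opens the branching steps, stood at 107, 116 and 125 CPM in liver and at 120, 113 and 101 CPM in lung, where the libraries interleaved. *Mgat2*, the enzyme of the next branch, stood at 64.6, 63.7 and 65.0 CPM in liver and at 79.0, 73.5 and 75.6 CPM in lung. The tissues did not overlap for *Mgat2*, but its log2 fold change of 0.23 ± 0.08 was below the minimum fold (edgeR adjusted p = 0.0215). *Fut8*, the core fucosyltransferase, stood at 19.6, 29.2 and 20.8 CPM in liver and at 53.7, 64.4 and 55.4 CPM in lung (1.31 ± 0.15, edgeR adjusted p = 2.99e-05).

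*Gnptab*, which codes for the catalytic part of the enzyme that makes the mannose-6-phosphate tag of lysosomal enzymes, stood at 20.5, 21.5 and 21.3 CPM in WT liver and at 59.3, 56.5 and 59.0 CPM in WT lung. The spread within each tissue was small beside the difference (1.45 ± 0.08, edgeR adjusted p = 1.72e-07). In the other direction, *Alg8*, which adds the second glucose to the precursor, stood at 16.3, 15.4 and 20.5 CPM in liver and at 4.79, 6.0 and 6.29 CPM in lung (-1.63 ± 0.16, edgeR adjusted p = 1.33e-05). *Alg3*, the mannosyltransferase that starts the lumenal steps, stood at 12.9, 13.1 and 14.4 CPM in liver and at 5.88, 6.27 and 7.70 CPM in lung (-1.04 ± 0.14, edgeR adjusted p = 0.000111). Neither gene overlapped between tissues. *Pmm2*, the phosphomannomutase that feeds mannose into the donors, was also lower in lung (-1.01 ± 0.08, edgeR adjusted p = 3.40e-06).

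The glucosidase genes were all lower in lung. *Mogs*, which codes for glucosidase I and removes the outermost glucose, stood at 53.1, 56.4 and 60.0 CPM in WT liver and at 32.0, 32.2 and 31.6 CPM in WT lung (-0.83 ± 0.08, edgeR adjusted p = 1.09e-05). *Ganab*, the catalytic subunit of glucosidase II, stood at 216, 231 and 220 CPM in liver and at 129, 133 and 124 CPM in lung (-0.81 ± 0.09, edgeR adjusted p = 3.31e-05). Its partner subunit *Prkcsh* differed by -0.99 ± 0.11 (edgeR adjusted p = 2.06e-05). For each of these genes every lung library was below every liver library, where the tissues did not overlap for 81.3% of all genes.

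Within the oligosaccharyltransferase, *Tusc3* went against the rest. *Tusc3* and *Magt1* code for alternative oxidoreductase subunits of the complex that acts after translation. *Tusc3* stood at 26.5, 29.3 and 23.9 CPM in WT liver and at 60.1, 54.4 and 50.0 CPM in WT lung (1.04 ± 0.10, edgeR adjusted p = 1.37e-05). *Magt1* stood at 82.3, 96.8 and 90.9 CPM in liver and at 46.4, 58.6 and 57.7 CPM in lung (-0.74 ± 0.11, edgeR adjusted p = 0.000182). The log2 ratio of *Tusc3* to *Magt1* counts within a library was therefore -1.76 ± 0.15 (SD, n = 3) in WT liver and 0.02 ± 0.31 in WT lung, with no overlap. A two-sided exact permutation of libraries taken as unpaired gave p = 0.1, the smallest that 3 against 3 can give. It did not use the pairing of liver and lung by animal. The alternative catalytic subunits were both lower in lung. *Stt3a*, of the complex that works on the translating ribosome, stood at 198, 216 and 236 CPM in liver and at 113, 136 and 130 CPM in lung (-0.79 ± 0.12, edgeR adjusted p = 0.000173). *Stt3b*, of the complex that works after translation, stood at 213, 220 and 214 CPM in liver and at 180, 161 and 155 CPM in lung, where it was also called lower.

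**Figure D1:**
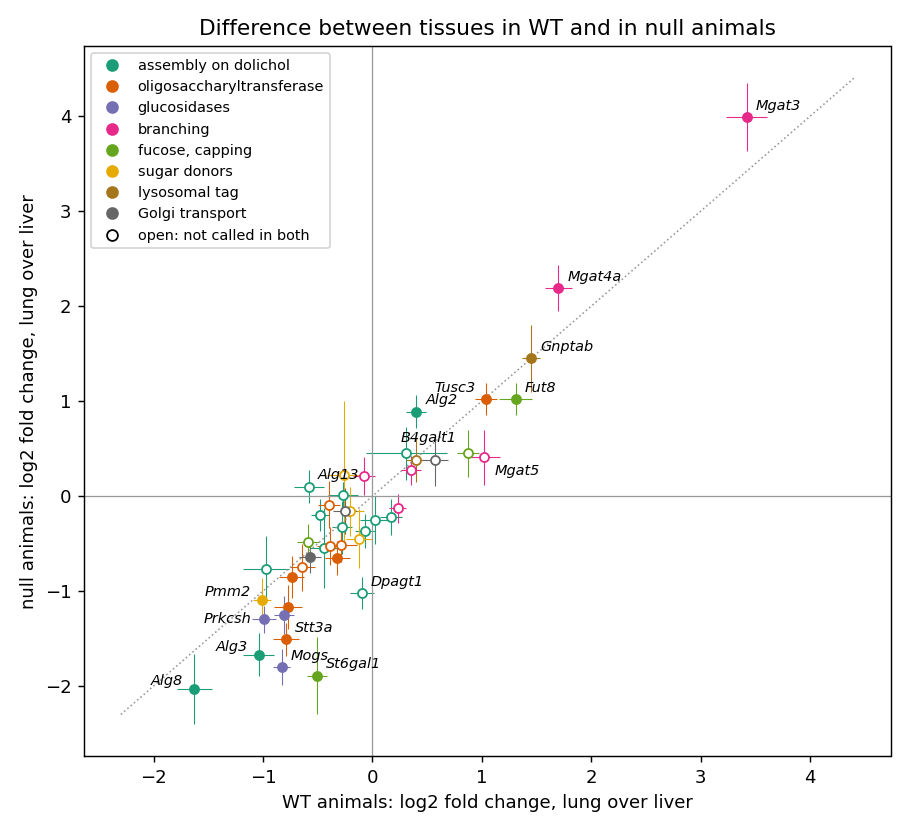
Difference between tissues for the 45 genes, as the log2 fold change of lung over liver in WT animals (horizontal axis) and in null animals (vertical axis), with bars of 1 SE, colours by role, filled points for genes called in both genotypes and a dotted line of equality. *Mgat3* (3.42 and 3.99) and *Mgat4a* (1.70 and 2.19) lie at the top right, and *Dpagt1* (-1.02 in null), *Mogs* and *St6gal1* lie below the line.

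The same comparison in null animals used none of the WT libraries. By edgeR 19 of 45 genes were called, 6 higher and 13 lower in lung, or 42.2% against 45.8% of the 15508 genes tested. When null lung 1 was left out 26 were called, 9 up and 17 down (against 60.7% of all genes), and without null liver 1, 19 (against 34.8%). The groups did not overlap for 28 of the 45, against 60.4% of all genes. Of the 45 genes 18 were called in both genotypes, with no change of direction, and lung was higher for 6 and lower for 12. Over all 15226 genes tested in both, 6726 were called in both, 6707 of them in the same direction. The sign of the log2 fold change was shared by 38 of 45 genes (84.4%), against 88.3% of all genes tested in both, and across the 45 genes the log2 fold changes correlated at r = 0.930, against 0.936 over all genes. *Mgat3* stood at 1.77, 1.61 and 1.39 CPM in null liver and at 36.8, 16.3 and 22.5 CPM in null lung (3.99 ± 0.36, edgeR adjusted p = 0.000737). *Mgat4a* stood at 11.3, 10.2 and 9.50 CPM in null liver and at 62.3, 35.7 and 42.8 CPM in null lung (2.19 ± 0.24, edgeR adjusted p = 0.00127). For both genes the highest lung value was that of null lung 1, and lung libraries stayed above liver libraries without it.

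*Alg8* stood at 16.3, 14.8 and 14.0 CPM in null liver and at 5.74, 2.81 and 2.45 CPM in null lung (-2.03 ± 0.37, edgeR adjusted p = 0.00650). *Alg3* stood at 10.5, 12.1 and 12.2 CPM in null liver and at 4.31, 3.15 and 3.45 CPM in null lung (-1.67 ± 0.23, edgeR adjusted p = 0.00266). *Gnptab* (1.45 ± 0.35) and *Fut8* (1.02 ± 0.17) were higher in null lung, and *Pmm2* (-1.09 ± 0.23), *Prkcsh* (-1.30 ± 0.14), *Ganab* (-1.25 ± 0.20) and *Stt3a* (-1.51 ± 0.17) were lower. *Tusc3* was higher in lung in these animals too, by 1.02 ± 0.17. The genes that entered the largest 6 differences in null animals but not in WT were *St6gal1* and *Mogs*. *St6gal1*, which caps galactose with sialic acid, differed between the tissues by -1.89 ± 0.41 in null (edgeR adjusted p = 0.0118) and by -0.51 ± 0.09 in WT (edgeR adjusted p = 0.000522). *Mogs* differed by -1.80 ± 0.19 in null (edgeR adjusted p = 0.00107). *Dpagt1*, the enzyme that puts the first sugar on dolichol, was called lower in null lung (-1.02 ± 0.17, edgeR adjusted p = 0.00480) and was not called in WT, where the libraries of the tissues overlapped.

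The comparison of null with WT liver asked what the deletion did to the pathway in that tissue. *St6gal1*, *B4galt1*, *Mgat5*, *Stt3a* and *Prkcsh* rose, and *Pmm2*, *Gmppb*, *Mgat3*, *Mgat1*, *Alg2*, *Dolk* and *Gnptab* fell. By edgeR 12 of 45 genes passed, with 5 up and 7 down in null, or 26.7% against 26.9% of the 14343 genes tested, so the share called was that of genes at large. The median log2 fold change was -0.08 over the 45 genes and 0.02 over all genes. The groups did not overlap for 29 of the 45, 10 higher and 19 lower in null, against 46.6% of all genes, and 23 had an unadjusted p under 0.05, against 41.4%. Upper-quartile factors moved the median of all genes to -0.09 and gave 2 up and 11 down (against 28.6% of all genes called), and removing trends with GC content and length gave 3 up and 7 down (against 28.5%). The count fell to 4 without WT liver 1 (against 14.8% of all genes), 5 without WT liver 2 (against 15.6%) and 3 without WT liver 3 (against 11.3%). It was 10 without null liver 1 (against 23.8%), 8 without null liver 2 (against 23.3%) and 6 without null liver 3 (against 21.8%).

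Among fucose and capping genes, *St6gal1* (chr16:23224740-23360350, plus strand) had the largest change of all 45. It stood at 104, 98.7 and 104 CPM in WT liver and at 244, 325 and 266 CPM in null liver. Every null library was far above the highest WT library (log2 fold change 1.44 ± 0.14 SE, 2.72-fold, edgeR adjusted p = 0.00201), and the gene was called with any 1 of the 6 libraries left out. *B4galt1*, the gene of the galactosyltransferase that acts just before it, stood at 122, 112 and 128 CPM in WT and at 169, 177 and 175 CPM in null (0.52 ± 0.11, edgeR adjusted p = 0.0124). *Fut8* and *St3gal4*, another sialyltransferase gene, were not called.

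Branching genes were split. *Mgat3* stood at 2.78, 4.05 and 2.84 CPM in WT liver and at 1.77, 1.61 and 1.39 CPM in null liver (-1.02 ± 0.24, edgeR adjusted p = 0.0211). *Mgat5* stood at 4.05, 3.88 and 4.35 CPM in WT and at 5.77, 5.77 and 7.82 CPM in null (0.65 ± 0.20, edgeR adjusted p = 0.0481). Neither gene overlapped between genotypes. With 1 library left out at a time, *Mgat3* kept its call in 2 of 6 fits (without null liver 1 or 2) and *Mgat5* in 1 of 6 (without null liver 1). *Mgat1*, the enzyme that acts on the product of the class I mannosidases, stood at 107, 116 and 125 CPM in WT and at 83.1, 79.5 and 89.4 CPM in null (-0.47 ± 0.10, edgeR adjusted p = 0.0168), and lost its call only without WT liver 3. *Mgat2* stood at 64.6, 63.7 and 65.0 CPM in WT and at 52.1, 56.0 and 61.9 CPM in null. All null libraries were below all WT libraries for both, but *Mgat2* was not called (-0.19 ± 0.10, edgeR adjusted p = 0.194).

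**Figure D2:**
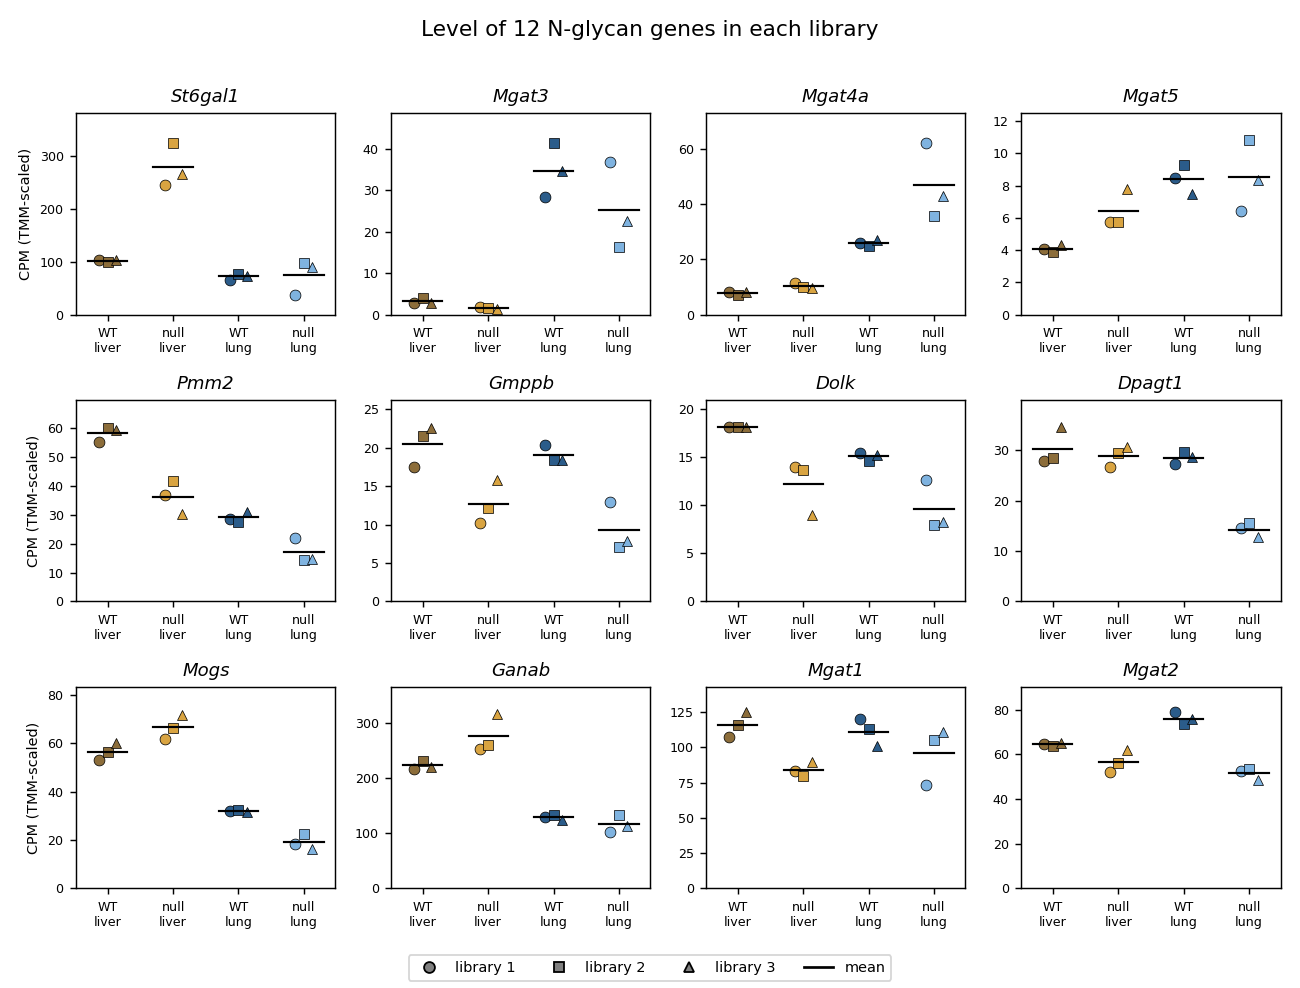
Level of 12 of the genes in each library, in CPM scaled by TMM factors on an axis from 0, with 3 libraries per group (circle, square and triangle for libraries 1, 2 and 3) and a bar at the group mean. In liver *St6gal1* is higher in null (244 to 325 CPM against 98.7 to 104), and in lung *Dpagt1* is lower in null (12.7 to 15.5 CPM against 27.3 to 29.7).

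Of the 4 genes that make mannose donors, 2 fell in null liver. *Pmm2* (chr16:8637674-8662467) stood at 55.0, 59.8 and 59.2 CPM in WT and at 36.9, 41.7 and 30.2 CPM in null (-0.68 ± 0.12, edgeR adjusted p = 0.00872). *Gmppb*, the catalytic subunit that makes GDP-mannose, stood at 17.5, 21.5 and 22.6 CPM in WT and at 10.2, 12.1 and 15.8 CPM in null (-0.70 ± 0.19, edgeR adjusted p = 0.0328). The groups were separate for both, while *Mpi* and *Gmppa* were not called. The call of *Pmm2* held with any 1 of the 6 libraries left out, and that of *Gmppb* only without null liver 3. *Gmppb* shares 33.6% of its exon bases with a gene on the opposite strand, and strand use in counting is not given in the sources used here.

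Of the 14 assembly genes, 2 were called, both lower in null liver. *Dolk*, the kinase that makes dolichol phosphate, stood at 18.1, 18.2 and 18.2 CPM in WT and at 14.0, 13.7 and 8.96 CPM in null (-0.58 ± 0.18, edgeR adjusted p = 0.0476). *Alg2*, a mannosyltransferase of the cytosolic side, differed by -0.56 ± 0.12 (edgeR adjusted p = 0.0134). The call of *Alg2* was lost without WT liver 1 or 3, and that of *Dolk* held only without null liver 1 or 2. *Dpagt1* stood at 27.9, 28.5 and 34.6 CPM in WT and at 26.7, 29.4 and 30.7 CPM in null, with overlapping groups. The groups were separate for 8 of the 14 genes, all lower in null, where 46.6% of all genes were separate in either direction.

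The glucosidase genes had higher values in null liver, and 1 of the 3 was called. *Prkcsh* rose by 0.47 ± 0.13 (edgeR adjusted p = 0.0293), a call that held in 1 of 6 fits with a library left out, that without null liver 1. *Ganab* stood at 216, 231 and 220 CPM in WT and at 253, 260 and 315 CPM in null (0.31 ± 0.12, edgeR adjusted p = 0.102). *Mogs* stood at 53.1, 56.4 and 60.0 CPM in WT and at 61.9, 66.2 and 71.7 CPM in null (0.24 ± 0.10, edgeR adjusted p = 0.119). No null library was below a WT library for any of the 3, where 46.6% of all genes were separate in either direction.

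In the oligosaccharyltransferase 1 of 9 genes was called. *Stt3a* stood at 198, 216 and 236 CPM in WT liver and at 284, 289 and 340 CPM in null liver (0.49 ± 0.13, edgeR adjusted p = 0.0274). *Stt3b* stood at 213, 220 and 214 CPM in WT and at 196, 206 and 209 CPM in null, a smaller gap between groups that were also separate. The log2 ratio of *Stt3a* to *Stt3b* counts was -0.11, -0.02 and 0.14 in WT liver and 0.54, 0.49 and 0.70 in null liver. The ratio was higher in each null liver than in any WT liver (difference of means 0.57, two-sided exact permutation p = 0.1, the smallest possible). *Tusc3* stood at 29.8, 31.9 and 28.1 CPM and *Magt1* at 68.4, 76.7 and 79.2 CPM in null liver. Neither was called against WT, and their log2 ratio moved from -1.76 ± 0.15 to -1.32 ± 0.15 (SD, n = 3) with no overlap (two-sided exact permutation p = 0.1). With 1 library left out at a time, *Stt3a* kept its call only without null liver 1. *Gnptab* fell by 0.38 on the log2 scale (edgeR adjusted p = 0.0481) and lost its call with any 1 of the 6 libraries left out, and no gene of the 3 Golgi sugar transporters was called.

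**Figure D3:**
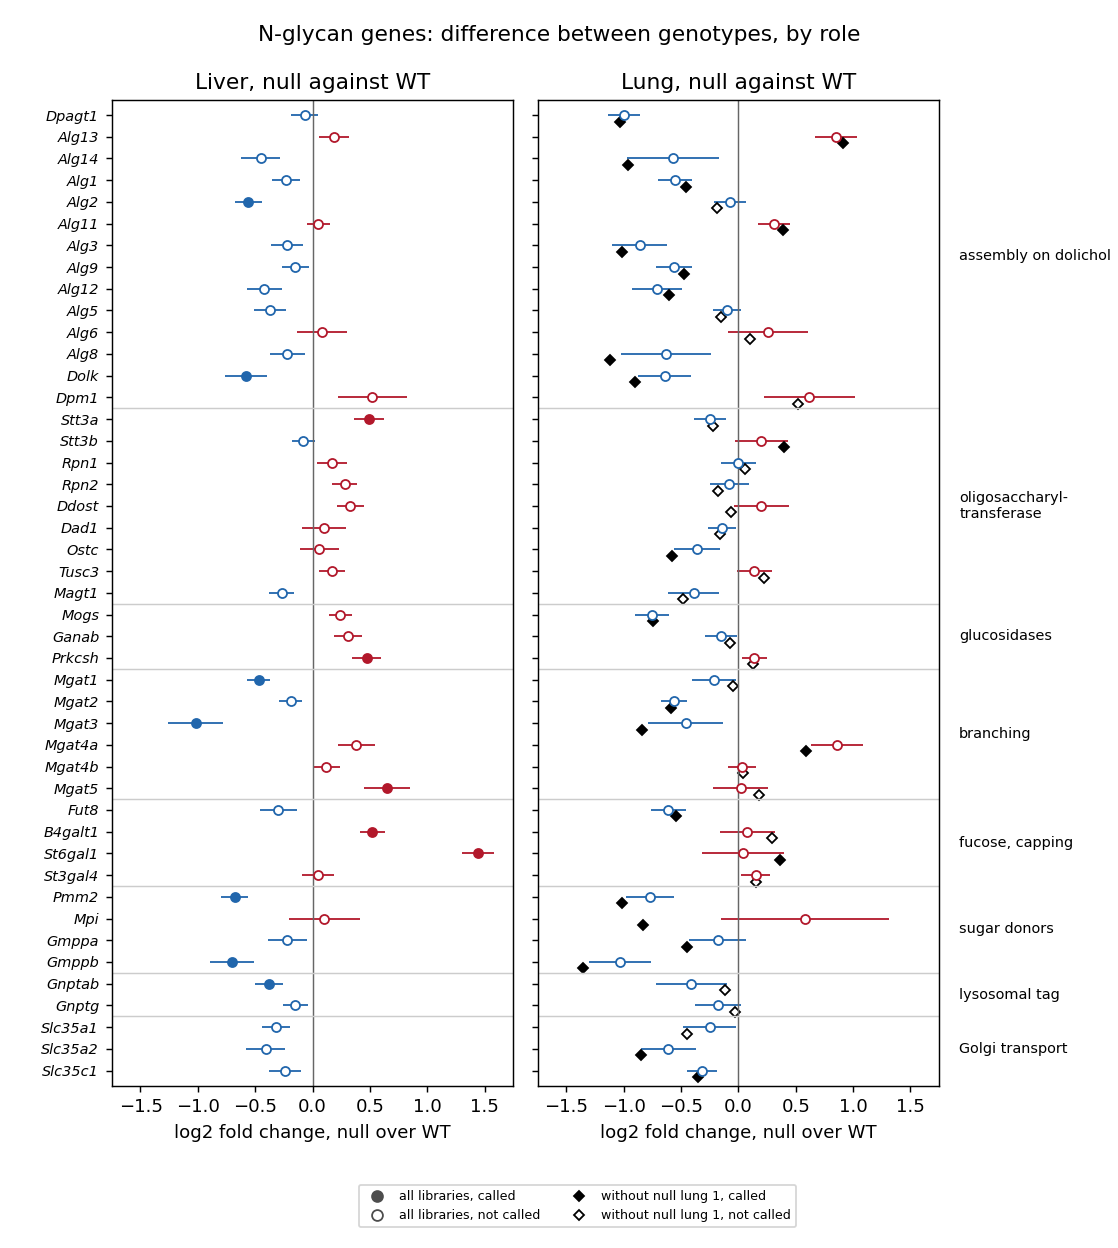
Log2 fold change of null over WT for the 45 genes by role, in liver (left) and lung (right), with bars of 1 SE, red above 0 and blue below, and filled circles for called genes (edgeR adjusted p under 0.05 and at least 1.2-fold). Diamonds under the circles on the right give the lung values without null lung 1, filled where called. In liver 12 circles are filled and in lung 0, while 24 diamonds are filled.

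The comparison of null with WT lung asked the same of the tissue that fails at birth. With all libraries edgeR called 0 of the 45 genes, against 0.327% of the 15591 genes tested. At unadjusted p under 0.05 there were 15, of which 2 were higher and 13 lower in null, against 25.0% of all genes. DESeq2 called 12 of 45, 2 higher and 10 lower, against 15.1% of all genes. With null lung 1 left out edgeR called 24 of 45, of which 5 were up and 19 down, against 37.0% of all genes, while leaving out any other lung library gave 0. The median log2 fold change was -0.18 over the 45 genes and 0.06 over all genes. The groups did not overlap for 19 of the 45, 5 higher and 14 lower, against 36.0% of all genes.

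Of the assembly genes *Dpagt1* (chr9:44326019-44333900, plus strand) had the lowest p. It stood at 27.3, 29.7 and 28.6 CPM in WT lung and at 14.5, 15.5 and 12.7 CPM in null lung. Null lung 1 lay between the other null libraries, and no null library came near the lowest WT library (0.499-fold, log2 fold change -1.0 ± 0.14, edgeR adjusted p = 0.0541). The adjusted p was 2.97e-08 by DESeq2 and 0.00159 by edgeR without null lung 1. *Alg3* differed by -0.86 ± 0.24 (edgeR adjusted p = 0.116), *Alg8* by -0.63 ± 0.39 (edgeR adjusted p = 0.347) and *Dolk* by -0.64 ± 0.23 (edgeR adjusted p = 0.163). In the fit that left out null lung 1 these were -1.01, -1.12 and -0.90 and were called. That fit called 10 of the 14 assembly genes, these included and 8 of them lower, against 37.0% of all genes. *Alg13*, which codes for a partner in adding the second sugar, had higher values in null lung by 0.85 ± 0.18 (edgeR adjusted p = 0.0771) and was called by DESeq2 (adjusted p = 0.000639).

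*Mogs* (chr6:83115496-83118898, plus strand) stood at 32.0, 32.2 and 31.6 CPM in WT lung and at 18.3, 22.3 and 16.3 CPM in null lung. The groups were separate and the WT libraries nearly level (-0.75 ± 0.15, edgeR adjusted p = 0.0722). It was called at nearly the same size without null lung 1 (-0.74 ± 0.14, edgeR adjusted p = 0.00728). *Ganab* stood at 129, 133 and 124 CPM in WT and at 101, 133 and 113 CPM in null, with overlapping groups (-0.15 ± 0.14, edgeR adjusted p = 0.537).

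Among branching genes *Mgat2* stood at 79.0, 73.5 and 75.6 CPM in WT lung and at 52.5, 53.3 and 48.5 CPM in null lung. Its groups were far apart for their spread (-0.56 ± 0.11, edgeR adjusted p = 0.0700, and 5.53e-05 by DESeq2). *Mgat1* stood at 120, 113 and 101 CPM in WT and at 73.4, 105 and 111 CPM in null, where null lung 1 was low and the other null libraries lay within the WT range (-0.21 ± 0.19, edgeR adjusted p = 0.516). *Mgat4a* had higher values in null by 0.86 ± 0.23 (edgeR adjusted p = 0.107), or 0.59 ± 0.12 without null lung 1 (edgeR adjusted p = 0.00884). *Mgat3* differed by -0.46 ± 0.33 (edgeR adjusted p = 0.422), or -0.84 ± 0.21 without null lung 1 (edgeR adjusted p = 0.0168). *Fut8* differed by -0.61 ± 0.15 (edgeR adjusted p = 0.0911) and was called by DESeq2 (adjusted p = 0.0203) and without null lung 1 (edgeR adjusted p = 0.0145). For *St6gal1* null lung 1 went the other way from its group. The WT lungs stood at 66.4, 76.6 and 73.8 CPM and the null lungs at 36.3, 96.9 and 90.1 CPM, which gave 0.04 ± 0.36 with all libraries (edgeR adjusted p = 0.956) and 0.36 ± 0.10 without null lung 1 (edgeR adjusted p = 0.0274).

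None of the 4 genes for mannose donors was called in lung with all libraries. *Gmppb* stood at 20.4, 18.4 and 18.4 CPM in WT lung and at 12.9, 7.07 and 7.90 CPM in null lung (-1.03 ± 0.27, edgeR adjusted p = 0.101). *Pmm2* stood at 28.5, 27.5 and 31.0 CPM in WT and at 22.0, 14.4 and 14.5 CPM in null (-0.77 ± 0.21, edgeR adjusted p = 0.112). Null lung 1 was the highest null library for both, yet below every WT library. *Mpi*, the isomerase that makes mannose-6-phosphate, was picked out after its values were seen. It stood at 9.74, 9.27 and 8.92 CPM in WT lung and at 31.0, 5.36 and 5.17 CPM in null lung, so its log2 fold change was 0.58 ± 0.73 with all libraries (edgeR adjusted p = 0.650) and -0.83 ± 0.15 without null lung 1 (edgeR adjusted p = 0.00602). The highest liver value of *Mpi*, 18.2 CPM, was in null liver 1, the other library with skeletal muscle markers. All 4 donor genes were called lower without null lung 1, in a fit that called 37.0% of all genes. *Slc35a2*, the Golgi carrier of UDP-galactose, differed by -0.61 ± 0.24 (edgeR adjusted p = 0.186) and was called lower without null lung 1.

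The 9 oligosaccharyltransferase genes ranged from -0.39 to 0.20, and none passed an unadjusted p of 0.05 by edgeR with all libraries. With null lung 1 left out edgeR called 2 of the 9, against 37.0% of all genes. They were *Ostc* (-0.58 ± 0.10, edgeR adjusted p = 0.00411) and *Stt3b* (0.40 ± 0.10, edgeR adjusted p = 0.0207). *Stt3a* stood at 113, 136 and 130 CPM in WT lung and at 102, 112 and 106 CPM in null lung, which did not overlap (-0.25 ± 0.14, edgeR adjusted p = 0.305). *Stt3b* stood at 180, 161 and 155 CPM in WT and at 132, 227 and 212 CPM in null, where null lung 1 was the lowest of all lungs and the other null lungs the highest. *Tusc3* (60.1, 54.4 and 50.0 CPM in WT against 53.3, 70.0 and 58.1 CPM in null) and *Magt1* (46.4, 58.6 and 57.7 CPM against 45.8, 48.5 and 29.9 CPM) overlapped between genotypes.

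**Figure D4:**
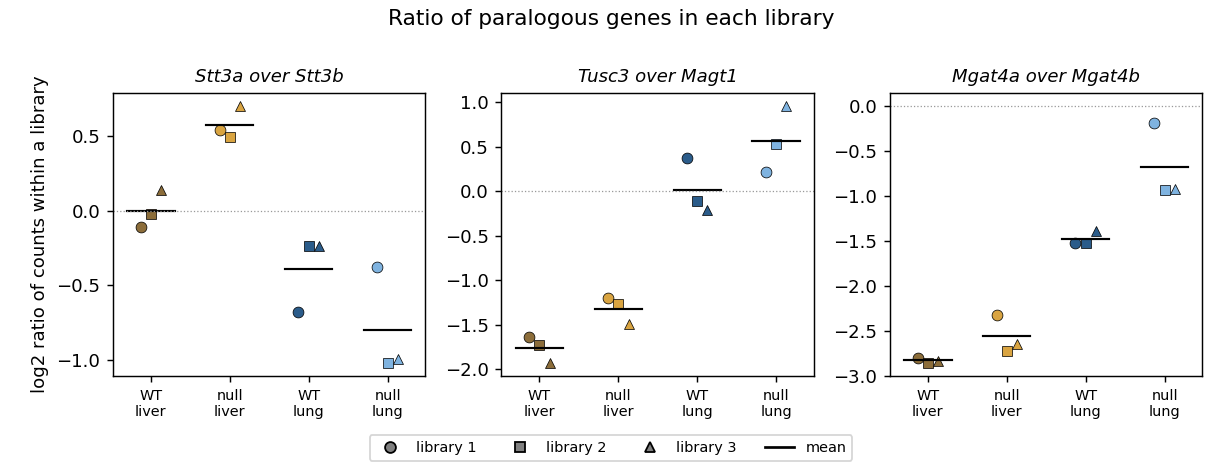
Log2 ratio of counts of paralogous genes within each library, not corrected for length, with 3 libraries per group and a bar at the mean. *Stt3a* over *Stt3b* is higher in null than in WT liver (0.57 against 0.00) and spreads widely in null lung, and *Tusc3* over *Magt1* and *Mgat4a* over *Mgat4b* are higher in lung than in liver.

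Liver and lung were set side by side, since they share animals but no library. Of the 45 genes, 23 were lower in null in both tissues, 15 were higher in both, 1 was lower in liver and higher in lung, and 6 were higher in liver and lower in lung. The sign was shared by 38 of 45 (84.4%), against 69.3% of all genes tested in both tissues. With null lung 1 left out, 36 of 45 shared it (80.0%, against 70.9%). In that fit 5 genes were called in both tissues, each in the same direction, namely *Mgat3*, *Pmm2*, *Dolk* and *Gmppb* lower and *St6gal1* higher. They made up 41.7% of the liver calls and 20.8% of the lung calls among the 45 genes, against 57.9% and 40.9% over all genes. The liver calls still included null liver 1. With null liver 1 left out, *Gmppb* was not called in liver, while *Mgat3*, *Pmm2*, *Dolk* and *St6gal1* were.

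Whether the effect of genotype differed between the tissues was tested as an interaction over all 12 libraries. By edgeR 1 of 45 genes was called, against 0.371% of the 16155 genes tested. That gene was *Mogs*, with values higher in null liver and lower in null lung, and a difference of -0.99 ± 0.17 between the tissues (edgeR adjusted p = 0.0484). *Dpagt1* followed with -0.94 ± 0.18 (edgeR adjusted p = 0.0597), *Stt3a* with -0.74 ± 0.18 (edgeR adjusted p = 0.118), *St6gal1* with -1.41 ± 0.41 (edgeR adjusted p = 0.179) and *Alg13* with 0.66 ± 0.21 (edgeR adjusted p = 0.209). DESeq2 called these 5 genes, against 3.94% of all genes. With null lung 1 left out edgeR called 3, against 5.0% of all genes, namely *Mogs* (-0.95), *Dpagt1* (-0.93) and *St6gal1* (-1.06). Both tissues came from the same pups. With the replicate number as a block, taken to mark the animal, edgeR called 0 of the 45 genes (*Mogs* -1.0 ± 0.20, adjusted p = 0.143). At unadjusted p under 0.05, and without the block, there were 11 of 45, against 13.9% of all genes. The call of *Mogs* held without null lung 1 or null lung 2 and was lost with any 1 of the other 10 libraries left out, in fits that gave -1.04 to -0.87.

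Of 42 other genes of N-glycan synthesis and trimming, 39 were tested. In liver 9 (23.1%) were called, 3 higher and 6 lower in null, with a median of -0.03, against 26.9% of all genes. The largest rises were *B4galt6*, a galactosyltransferase gene (0.89 ± 0.19), and *Man2a2*, an alpha-mannosidase II gene of the Golgi (0.87 ± 0.13, edgeR adjusted p = 0.00487). The largest fall was that of *B4galt4* (-0.65 ± 0.20), a galactosyltransferase gene. *Man1a*, the closest relative of *Man1a2*, was picked out after its values were seen, and it stood at 115, 111 and 95.6 CPM in WT liver and at 142, 150 and 153 CPM in null liver (0.46 ± 0.11, edgeR adjusted p = 0.0231). With 1 library left out at a time, the liver call was kept in 0 of 6 fits for *B4galt4*, 2 for *Man1a*, 4 for *B4galt6* and 6 for *Man2a2*. In lung edgeR called 0 of the 39 with all libraries (against 0.327% of all genes), 11 passed an unadjusted p of 0.05 (against 25.0%), and DESeq2 called 7 (against 15.1%). When null lung 1 was left out edgeR called 19, 6 up and 13 down (against 37.0%). Between WT tissues 28 of 39 (71.8%) were called, 13 higher and 15 lower in lung, against 77.0% of all genes, and between null tissues 13 (33.3%), 4 higher and 9 lower, against 45.8%.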

How the data were processed

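The authors sequenced stranded poly(A) libraries as 75-base pairs on a NextSeq 500. The submitters' processing notes name STAR 2.5.2a, FastQC, DESeq2 and mm10. The deposited values are raw counts per gene for each of the 12 libraries. The counting program, annotation and strand use are not given in the sources used here. Counts were tested with edgeR 4.0.16 in R 4.3.3 (filterByExpr, TMM, quasi-likelihood F test, Benjamini-Hochberg over all genes tested), and a gene was called at adjusted p under 0.05 and at least 1.2-fold. All 45 genes passed the filter in every comparison. Each SE came from dividing the log2 fold change by the root of its F value. DESeq2 1.42.0 was an alternative. Levels per kb use the principal transcript of GENCODE M21. The steps were run on simulated data with planted changes larger than most of those reported here, so smaller changes were not covered.

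The genes and lists were chosen with earlier results of these data known. Values in every library are given for the 6 called genes of largest change and no overlap per comparison, and for *Dpagt1*, *Stt3a*, *Stt3b*, *Tusc3*, *Magt1*, *Mogs*, *Ganab*, *Mgat1* and *Mgat2*. Of the other pathway genes the 2 largest rises and falls are named, except 1 that is not reported here. *B4galt1* in liver and any gene named beyond this were added after values were seen. Within a group no 2 libraries were alike within counting noise (lowest chi-square per gene 14.7). Pairs from different groups were not compared in this way. The authors took liver and lung from 3 mice of each genotype. No label ties a replicate number to an animal. Liver and lung of 1 number were taken as 1 animal from correlations of deviations (0.18 to 0.47, against -0.44 to 0.25 for unlike numbers). These ranges overlapped, though not within a genotype. Deviations were from means of 3 libraries, which lowers unlike numbers where like numbers are high. The highest value, 0.47, joined null liver 1 and null lung 1, which both held muscle markers, and the part of these was not tested. WT and null numbers did not pair (-0.04 to 0.14). Within a tissue, p-values measure the spread between 3 animals a group. Fits between tissues and of the interaction took the libraries as independent, except where a block is named.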

Additional observations from a re-analysis of the deposited data

Results flagged for a closer look

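*Mogs*, the gene of glucosidase I, was picked out because its genotype effect differed between the tissues by a test of the difference itself (log2 -0.99 ± 0.17 SE, lung minus liver, edgeR adjusted p = 0.0484, 12 libraries). Both tissues came from the same pups, and with the replicate number as a block the call was lost (adjusted p = 0.143, 0 of 16155 genes called by edgeR). All 3 null livers were above all 3 WT livers, and all 3 null lungs were below all 3 WT lungs. The adjusted p over the alternatives ran from 0.000277 by DESeq2 to 0.176 by edgeR without WT lung 2.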

How the results depend on the processing

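For null against WT liver, 12 genes were called with all libraries and 3 to 10 with 1 library left out. For lung the 0 calls of edgeR became 12 with DESeq2, 1 with a minimum of 10 counts in every library, 1 with trends in GC content and length removed, and 0 to 24 with 1 library left out, where 24 came without null lung 1. The interaction gave 1 call, 5 with DESeq2, 0 with DESeq2 size factors, 0 with upper-quartile factors, 0 with a minimum of 1 count, 0 with the replicate block, 0 with the block and the trends removed, and 0 to 3 with 1 library left out. With the trends removed the interaction again gave 1 call, but of *Dpagt1* (adjusted p = 0.0466) in place of *Mogs* (edgeR adjusted p = 0.0711). Counts between tissues stayed within 1.5 times of the reported count under every alternative run, with 29 to 34 in WT and 14 to 26 in null when 1 library was left out. The replicate block gave 9 calls in liver, 32 between WT tissues and 17 between null tissues.

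Of 1188 alternative values for single genes, 1046 kept direction and call, 90 lost the call, 45 gained one and 7 turned sign. In lung *Mpi* turned to -0.01 with the replicate block and ran from -0.83 to 0.97 with 1 library left out, the lowest without null lung 1. *St6gal1* in lung turned to -0.02 with upper-quartile factors, to -0.08 with the replicate block and ran from -0.18 to 0.36 with 1 library left out, below zero without WT lung 1, null lung 2 or null lung 3. The cause was not tested. With 3 libraries a group, changes of low genes such as *Mgat3* and *Mgat5* in liver rest on few CPM.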
